A study of Homo sapiens with 27 samples.

Results

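The leukocyte immunoglobulin-like receptors, or LILR genes, encode cell surface receptors of myeloid cells that lie together in the leukocyte receptor complex on chromosome 19. The 9 genes described here are LILRB1, LILRB2, LILRB3, LILRB4 and LAIR1, which encode inhibitory receptors, and LILRA1, LILRA2, LILRA5 and LILRA6, which encode activating ones. They were taken by symbol from a table of 57992 genes, and all 9 were found. The study measured RNA in 27 libraries of the human acute myeloid leukaemia cell lines MOLM-13, MV411 and SKNO1. In each line 3 libraries carried CARM1 hairpin 1, 3 carried CARM1 hairpin 2 and 3 carried a scramble shRNA, so that each line had 6 knockdown and 3 scramble libraries. CARM1, also called PRMT4, is an arginine methyltransferase that acts on histones and other nuclear proteins. All groups, scramble included, were transduced with a constitutive lentivirus and were collected 3 days after shRNA inhibition. All SKNO1 groups were grown with 10 ng/mL of the cytokine GM-CSF, and the other lines had no supplement. Each line is a single leukaemia, and no label says whether replicates were separate infections, so p-values measure the spread between these samples only.

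The inhibitory LILRB receptors and LAIR1 carry ITIM motifs in their cytoplasmic tails, which recruit phosphatases such as SHP-1, the product of PTPN6, and damp signals from activating receptors. The activating LILRA receptors have short tails and signal through the ITAM adaptor FcRγ, the product of FCER1G. In healthy blood most of these genes are active mainly in myeloid cells such as monocytes and dendritic cells. LILRB1 and LILRB2 bind HLA class I molecules, LAIR1 binds collagens and complement C1q, and LILRB4 is known in monocytic leukaemia as a receptor for apolipoprotein E.

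In GENCODE 29 (GRCh38) the 9 genes are annotated as protein coding. On the minus strand lie LILRB3 (ENSG00000204577) at chr19:54216278-54223506, LILRA6 (ENSG00000244482) at chr19:54236592-54242791, LILRB2 (ENSG00000131042) at chr19:54273821-54281184, LILRA5 (ENSG00000187116) at chr19:54307070-54313139 and LAIR1 (ENSG00000167613) at chr19:54351384-54370558. On the plus strand lie LILRA2 (ENSG00000239998) at chr19:54572920-54590287, LILRA1 (ENSG00000104974) at chr19:54593582-54602090, LILRB1 (ENSG00000104972) at chr19:54617158-54637528 and LILRB4 (ENSG00000186818) at chr19:54643889-54670359.

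Promoter windows from RefSeq (GRCh38.p14), which run from 250 bases before to 50 bases after an annotated gene start, were matched by symbol for 8 of the 9 genes, in 15 windows. LILRA6 had no entry. The windows below belong to 5 of the 6 genes with a match to CAGGAAG, one form of the core of ETS factors. LAIR1, which had no match to this form, is printed as well. They are printed 5′ to 3′ on the gene's own strand. Capitals mark matches, on either strand, to this form of the ETS core (CAGGAAG, whose other strand reads CTTCCTG) and to the core of RUNX factors (TGTGG, whose other strand reads CCACA). ETS cores are bound by factors such as PU.1. In LILRB4, LILRB3, LILRA1 and LILRA2 the capitals of an ETS and a RUNX match run together.
The windows lie at chr19:54662735-54663034 (plus strand) for LILRB4, chr19:54222958-54223257 (minus) for LILRB3, chr19:54573581-54573880 (plus) for LILRA2, chr19:54593947-54594246 (plus) for LILRA1, chr19:54280579-54280878 (minus) for LILRB2 and chr19:54364882-54365181 (minus) for LAIR1.
LILRB4: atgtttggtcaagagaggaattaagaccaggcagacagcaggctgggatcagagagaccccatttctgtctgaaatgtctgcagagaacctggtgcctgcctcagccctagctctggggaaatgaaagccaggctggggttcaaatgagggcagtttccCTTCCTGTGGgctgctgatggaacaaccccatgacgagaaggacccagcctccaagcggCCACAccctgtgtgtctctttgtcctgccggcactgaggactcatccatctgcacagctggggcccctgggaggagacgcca
LILRB3: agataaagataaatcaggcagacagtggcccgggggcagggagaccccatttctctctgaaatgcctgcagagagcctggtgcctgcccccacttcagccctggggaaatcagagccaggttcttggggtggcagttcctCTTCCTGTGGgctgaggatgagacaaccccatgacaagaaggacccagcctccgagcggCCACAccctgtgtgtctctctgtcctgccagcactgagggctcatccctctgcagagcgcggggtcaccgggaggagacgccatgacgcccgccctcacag
LILRA2: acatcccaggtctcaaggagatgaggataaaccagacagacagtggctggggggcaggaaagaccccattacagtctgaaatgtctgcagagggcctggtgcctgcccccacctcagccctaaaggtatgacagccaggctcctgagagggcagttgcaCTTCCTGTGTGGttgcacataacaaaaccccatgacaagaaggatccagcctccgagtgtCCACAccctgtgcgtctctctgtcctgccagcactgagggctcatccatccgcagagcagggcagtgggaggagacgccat
LILRA1: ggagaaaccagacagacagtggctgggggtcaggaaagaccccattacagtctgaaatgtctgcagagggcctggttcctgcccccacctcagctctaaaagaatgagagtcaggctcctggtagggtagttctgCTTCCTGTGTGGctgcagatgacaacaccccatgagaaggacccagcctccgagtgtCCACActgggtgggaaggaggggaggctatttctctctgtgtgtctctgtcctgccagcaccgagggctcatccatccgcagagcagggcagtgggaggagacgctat
LILRB2: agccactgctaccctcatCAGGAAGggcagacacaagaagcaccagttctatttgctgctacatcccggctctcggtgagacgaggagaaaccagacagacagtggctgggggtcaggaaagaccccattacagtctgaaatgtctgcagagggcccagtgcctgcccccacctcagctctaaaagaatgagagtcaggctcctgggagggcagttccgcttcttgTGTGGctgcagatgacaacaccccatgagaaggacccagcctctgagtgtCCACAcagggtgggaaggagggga
LAIR1: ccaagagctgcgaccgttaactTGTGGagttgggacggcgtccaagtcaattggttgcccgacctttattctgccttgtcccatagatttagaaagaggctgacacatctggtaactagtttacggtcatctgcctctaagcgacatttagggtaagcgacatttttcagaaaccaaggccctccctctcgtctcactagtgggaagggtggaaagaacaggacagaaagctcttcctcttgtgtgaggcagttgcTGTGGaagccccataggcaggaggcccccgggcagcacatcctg

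The form CAGGAAG of the ETS core was found in 8 of the 15 windows, which belong to 6 of the 8 genes, and in 12.7% of all 35116 windows of 300 bases. No match to this form was found in the windows of LAIR1 and LILRA5, and other forms of the ETS core were not searched for. The printed LAIR1 window reads cttcctc, which differs from CTTCCTG in its last base only. All 15 windows held the RUNX core, which 51.4% of all windows hold. The joined form TTCCTGTGG, chosen after the sequences had been read, occurred in the windows of LILRB3 and LILRB4 and in 0.615% of all windows. It overlaps the ETS and the RUNX core. Of the 15 windows, 3 held an NF-kB motif (GGGA and CC with 4 bases between), as did 25.6% of all windows, 1 a C/EBP motif (TTGCNNAA, 10.5%), 1 an AP-1 motif (TGANTCA, 7.71%) and 0 an IRF motif (GAAA and GAAA with 2 bases between, 3.57%), on either strand. Several windows are near copies of each other or overlap, so they are not independent, and a match describes letters and not a bound site.

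The table holds RSEM expected counts, with totals between 25063577 and 53291599 per library. Levels are given below as CPM, which sets expected counts in relation to library size, with TMM scaling over all 27 libraries. CARM1 was lower with both hairpins in every line, at 2.76 to 7.5 CPM in the group means of the 6 hairpin groups against 17.8 to 25 CPM in those of the 3 scramble groups. The myeloid surface marker CD33 averaged 53.6 to 147 CPM in the hairpin groups and 62.1 to 110 CPM in the scramble groups, so this myeloid marker was present in all lines. In MOLM-13 and MV411 none of the 7 monocyte markers was at 0 in all knockdown or all scramble libraries, but some were low. In MV411, 5 of the 7 had enough counts to test, and CD14 was at 0.106, 0.18 and 0.06 CPM in the scramble libraries of MOLM-13. SKNO1 had the summed level of 7 monocyte markers at 17.3 to 36 CPM in knockdown libraries and 19.4 to 29.5 CPM in scramble libraries, with FCN1 at 0. Marker lists of other blood cells were not all at 0. The 4 NK cell markers summed to 26.3 to 47.4 CPM in knockdown and 20.1 to 34 CPM in scramble libraries of MOLM-13, and to 11.2 to 29 CPM in knockdown and 16.2 to 20.4 CPM in scramble libraries of MV411. The 4 plasmacytoid dendritic cell markers, LILRA4 among them, summed to 48.2 to 63.4 CPM and 52.2 to 67.8 CPM in the knockdown and scramble libraries of MOLM-13, and to 28.3 to 41.8 CPM and 33.7 to 39.9 CPM in those of MV411. CD3E of T cells, at most 0.0528 CPM, and MS4A1 of B cells, at most 0.0401 CPM, were near 0 in every library, but their full lists were not. The 4 T cell markers summed to 2.54 to 6.89 CPM in knockdown and 8.45 to 13.2 CPM in scramble libraries of MOLM-13. In the other lines they summed to at most 0.436 CPM. The 4 B cell markers summed to at most 0.811 CPM in MOLM-13, 3.45 CPM in MV411 and 5.46 CPM in SKNO1. Bulk libraries cannot tell fewer cells with a given RNA from less of that RNA per cell.

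LAIR1 was the most abundant of the 9 genes in every line, and LILRB4 was the second in MOLM-13 and MV411 but was not detected in SKNO1. Levels between genes are compared per kb of annotated exon, in CPM per kb. Among the scramble libraries of MV411, LAIR1 averaged 34.3 ± 1 CPM per kb, LILRB4 25.2 ± 2.64, LILRA2 6.9 ± 0.519, LILRA1 5.27 ± 0.7 and LILRB1 2.11 ± 0.369 CPM per kb (SD, n = 3), and no neighbours in this order overlapped. LILRB2 followed at 0.886 ± 0.354 CPM per kb, where LILRB2 overlapped with LILRA5 and LILRA5 with LILRB3. The scramble libraries of MOLM-13 gave the same order for the first 5 genes, at 31.6 ± 3.03, 11.4 ± 3.45, 3.06 ± 0.687, 1.81 ± 0.136 and 1.39 ± 0.0813 CPM per kb, again without overlap. In SKNO1 scramble libraries LAIR1 averaged 14.8 ± 3.03 CPM per kb, LILRA2 0.654 ± 0.18 and LILRA1 0.395 ± 0.108, and the 6 other genes averaged 0.0615 CPM per kb or less. The lengths are unions of all annotated exons, so a gene that uses a short isoform is understated.

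**Figure D1:**
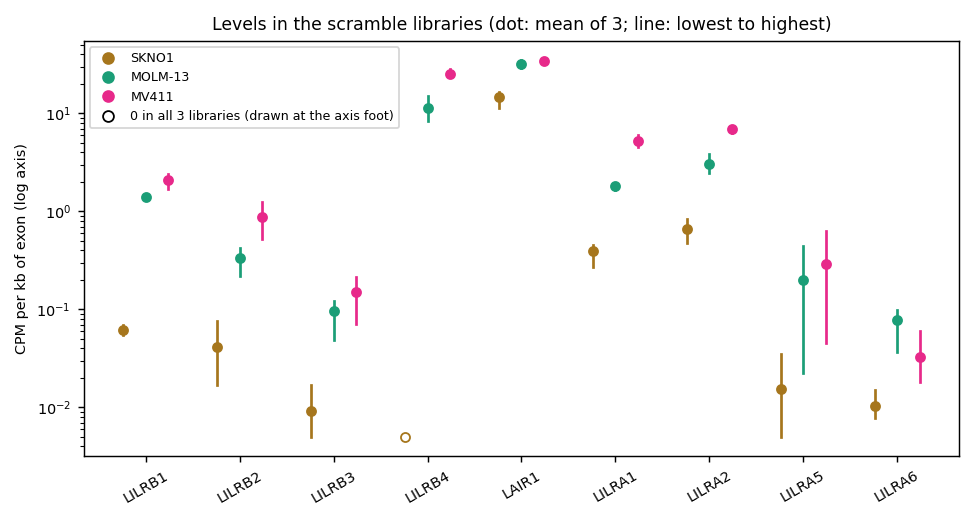
Levels of the 9 genes in the scramble libraries, in CPM per kb of annotated exon on a log axis, by line. Dots are means of 3 libraries and lines run from the lowest to the highest library. The means of SKNO1 lie lowest for all 9 genes, with LILRB4 at 0 in all 3 libraries, and LAIR1 is the highest gene in each line.

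Without CARM1 knockdown, SKNO1 stood below the other lines for nearly all of these receptors. LILRB4 had a count of 0 in all 9 SKNO1 libraries. In scramble libraries it was at 0, 0 and 0 CPM in SKNO1, against 53.3, 96.1 and 66.9 CPM in MOLM-13 and 153, 148 and 179 CPM in MV411. A count of 0 allows 3 counts, or 0.021 CPM over the 3 SKNO1 scramble libraries together, which makes LILRB4 at least 3430-fold lower in SKNO1 than the MOLM-13 mean and at least 7590-fold lower than the MV411 mean. Such limits cover counting error only. Of the 8 members tested, 7 were lower in SKNO1 scramble libraries than the mean of the other lines, where 29.9% of all genes tested were lower (edgeR quasi-likelihood test, here and below), and no fold was fitted for LILRB4. The log2 differences were -4.78 ± 0.23 for LILRB1 (SE, adjusted p = 1.54e-08), -3.65 ± 0.49 for LILRB2 (5.83e-05), -3.56 ± 0.70 for LILRB3 (0.00097), -2.95 ± 0.21 for LILRA1 (3.29e-07), -2.80 ± 0.21 for LILRA2 (6.53e-07), -3.71 ± 1.20 for LILRA5 (0.0192) and -1.14 ± 0.15 for LAIR1 (4.08e-05). LILRB3 and LILRA5 reached the count minimum of the test in 0 of 3 SKNO1 scramble libraries, and LILRB2 in 1 of 3. These 3 genes thus entered the test through the other lines, where they are higher. For 8 of the 9 members, all except LILRA5, every SKNO1 scramble library was below every scramble library of the other lines, as held for 22.9% of all genes tested. LILRA6, among these 8, was too low to be tested, at 1, 1 and 2 expected counts in SKNO1 and 5, 2.1 and 2 in MV411. LAIR1 differed least between the lines, at 132, 91.3 and 135 CPM in SKNO1, 249, 234 and 282 CPM in MOLM-13 and 272, 272 and 286 CPM in MV411. SKNO1 also differs from the other lines in its GM-CSF supplement, so line and supplement cannot be told apart. LILRA5 lost its call without SKNO1 scramble replicate 1 (adjusted p = 0.0615) or 2 (0.068).

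MOLM-13 was below MV411 for 5 of the 8 members tested, where 14.8% of all genes tested were lower. LILRB4 differed by -1.15 ± 0.20 on the log2 scale (adjusted p = 0.002), LILRA1 by -1.54 ± 0.20 (0.000154), LILRA2 by -1.17 ± 0.21 (0.00139), LILRB2 by -1.43 ± 0.43 (0.0265) and LILRB1 by -0.61 ± 0.19 (0.0291). For each of these 5 genes, every MOLM-13 scramble library was below every MV411 scramble library, as held for 20.5% of all genes tested. LAIR1, LILRB3 and LILRA5 overlapped between these lines and did not pass, and LILRA6 was not tested. The count of 5 fell to 3 without MOLM-13 scramble replicate 2 or 3 or without MV411 scramble replicate 2 or 3.

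In MOLM-13, knockdown raised 3 low-abundance receptors, LILRB2, LILRB3 and LILRA6, and the abundant LAIR1, and the other 5 members did not pass. LILRB2, an inhibitory receptor for HLA class I, had 9.07, 3.25 and 4.13 CPM with hairpin 1 and 2.69, 8.42 and 12.1 CPM with hairpin 2, against 1.61, 1.35 and 0.84 CPM with scramble. All 6 knockdown libraries were above all scramble libraries, and the log2 fold change was 2.44 ± 0.52 (adjusted p = 0.0103). LILRB3, an inhibitory receptor whose extracellular part closely resembles that of LILRA6, had 6.18, 0.878 and 1.07 CPM with hairpin 1 and 0.681, 2.57 and 7.89 CPM with hairpin 2, against 0.449, 0.451 and 0.18 CPM with scramble. Its change was 3.22 ± 0.90 (adjusted p = 0.0326), and the groups did not overlap. LILRA6, the activating counterpart, had 3.09, 0.618 and 0.442 CPM with hairpin 1 and 0.322, 1.56 and 5.13 CPM with hairpin 2, against 0.264, 0.27 and 0.1 CPM with scramble. Again the groups did not overlap, with a log2 change of 3.2 ± 0.96 (adjusted p = 0.0427). LAIR1, a collagen receptor, had 379, 327 and 355 CPM with hairpin 1 and 291, 358 and 424 CPM with hairpin 2, against 249, 234 and 282 CPM with scramble. Its change was smaller, at 0.52 ± 0.15 (adjusted p = 0.0325), and its groups did not overlap either.

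LILRB3 reached the count minimum of the test in 2 of 3 scramble libraries and LILRA6 in 0 of 3, so both entered it through the knockdown libraries, where they are high. The 4 of 9 members called higher, and 0 lower, stand beside 6.48% of all genes tested called higher in MOLM-13, and the same 4 were those whose groups did not overlap, which held for 7.81% of all genes in the upward direction. The median log2 change of the 9 members was 0.78, against 0.05 for all genes. LILRB4, the most abundant LILR gene of the line, did not pass, with 117, 61 and 71 CPM for hairpin 1 and 33.2, 96.6 and 175 CPM for hairpin 2, against 53.3, 96.1 and 66.9 CPM for scramble (log2 change 0.40 ± 0.41, adjusted p = 0.54). The activating LILRA2 (0.78, adjusted p = 0.243), LILRA1 (0.57, 0.159) and LILRA5 (2.11, 0.226) and the inhibitory LILRB1 (0.64, 0.22) did not pass either.

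The knockdown libraries of MOLM-13 were spread widely for these genes. Hairpin 1 replicate 1 and hairpin 2 replicate 3 were the highest libraries for LILRB2, LILRB3, LILRB4, LAIR1, LILRA1, LILRA2, LILRA5 and LILRA6. Hairpin 2 replicate 1 was the lowest knockdown library for LILRB1, LILRB2, LILRB3, LILRB4, LAIR1, LILRA1 and LILRA6. CD14, a monocyte co-receptor, had 7.31, 1.11 and 1.17 CPM with hairpin 1 and 1.29, 2.2 and 6 CPM with hairpin 2, against 0.106, 0.18 and 0.06 CPM with scramble, so the same pair of libraries was highest. CARM1 itself was lowest in this pair of libraries, at 2.77 CPM in hairpin 1 replicate 1 and 2.82 CPM in hairpin 2 replicate 3, against 4.22 to 5.86 CPM in the other 4 knockdown libraries, and its part in the spread was not tested. LYZ, another monocyte marker, did not follow this order, with 4890, 2840 and 3410 CPM for hairpin 1 and 4990, 712 and 3040 CPM for hairpin 2, against 3390, 898 and 474 CPM for scramble. The summed level of the 7 monocyte markers ran between 912 and 5330 CPM in knockdown libraries and between 566 and 3580 CPM in scramble libraries, and its part in the result was not tested. LYZ alone, which largely set this sum, ran between 712 and 4990 CPM and between 474 and 3390 CPM in these libraries. Of the T cell markers, CD3D fell by 1.68 (adjusted p = 0.0268) and TRAC by 1.20 (0.0152) on the log2 scale, and the 4 markers summed to 2.54 to 6.89 CPM in knockdown libraries and 8.45 to 13.2 CPM in scramble libraries, with CD3E at 0 in all knockdown libraries and CD2 at 0 in all scramble libraries. The count of 4 members depended on single libraries. It was 2 without hairpin 1 replicate 1, 2 without hairpin 2 replicate 3, 1 without scramble replicate 1, and 0 without scramble replicate 2 or without scramble replicate 3. LILRB2 then had an adjusted p of 0.0508 and 0.0611 in the last pair.

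**Figure D2:**
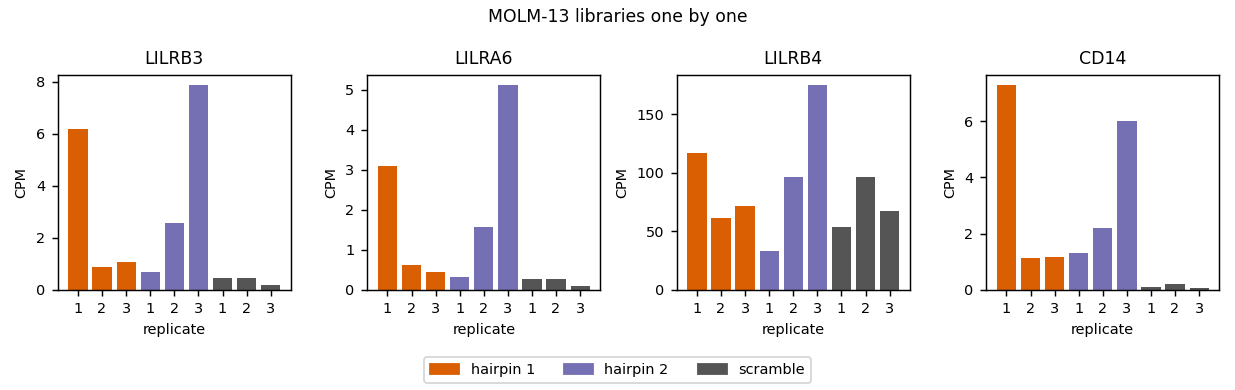
CPM of LILRB3, LILRA6, LILRB4 and the monocyte marker CD14 in each MOLM-13 library, by hairpin 1, hairpin 2 and scramble replicate. Hairpin 1 replicate 1 and hairpin 2 replicate 3 are the highest libraries in all 4 panels, and LILRB4 overlaps between knockdown and scramble.

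By hairpin, LILRB2 was the member that passed with each in MOLM-13. It changed by 2.16 ± 0.56 with hairpin 1 (adjusted p = 0.0469), where 2.13% of all genes were higher, and by 2.67 ± 0.57 with hairpin 2 (adjusted p = 0.0192), where 3.39% were. Leaving out any of 7 libraries ended the hairpin 1 call, all 3 scramble libraries and all 3 of hairpin 1 among them, and leaving out scramble replicate 2 or 3 ended that of hairpin 2. LILRB3 had log2 changes of 2.97 ± 0.98 (adjusted p = 0.101) with hairpin 1 and 3.43 ± 0.98 (0.053) with hairpin 2. Between the hairpins, edgeR called 0 of the 9 members and 0 of all 17732 genes tested in MOLM-13, 0 members had an unadjusted p under 0.05, and DESeq2 called 0 members as well.

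**Figure D3:**
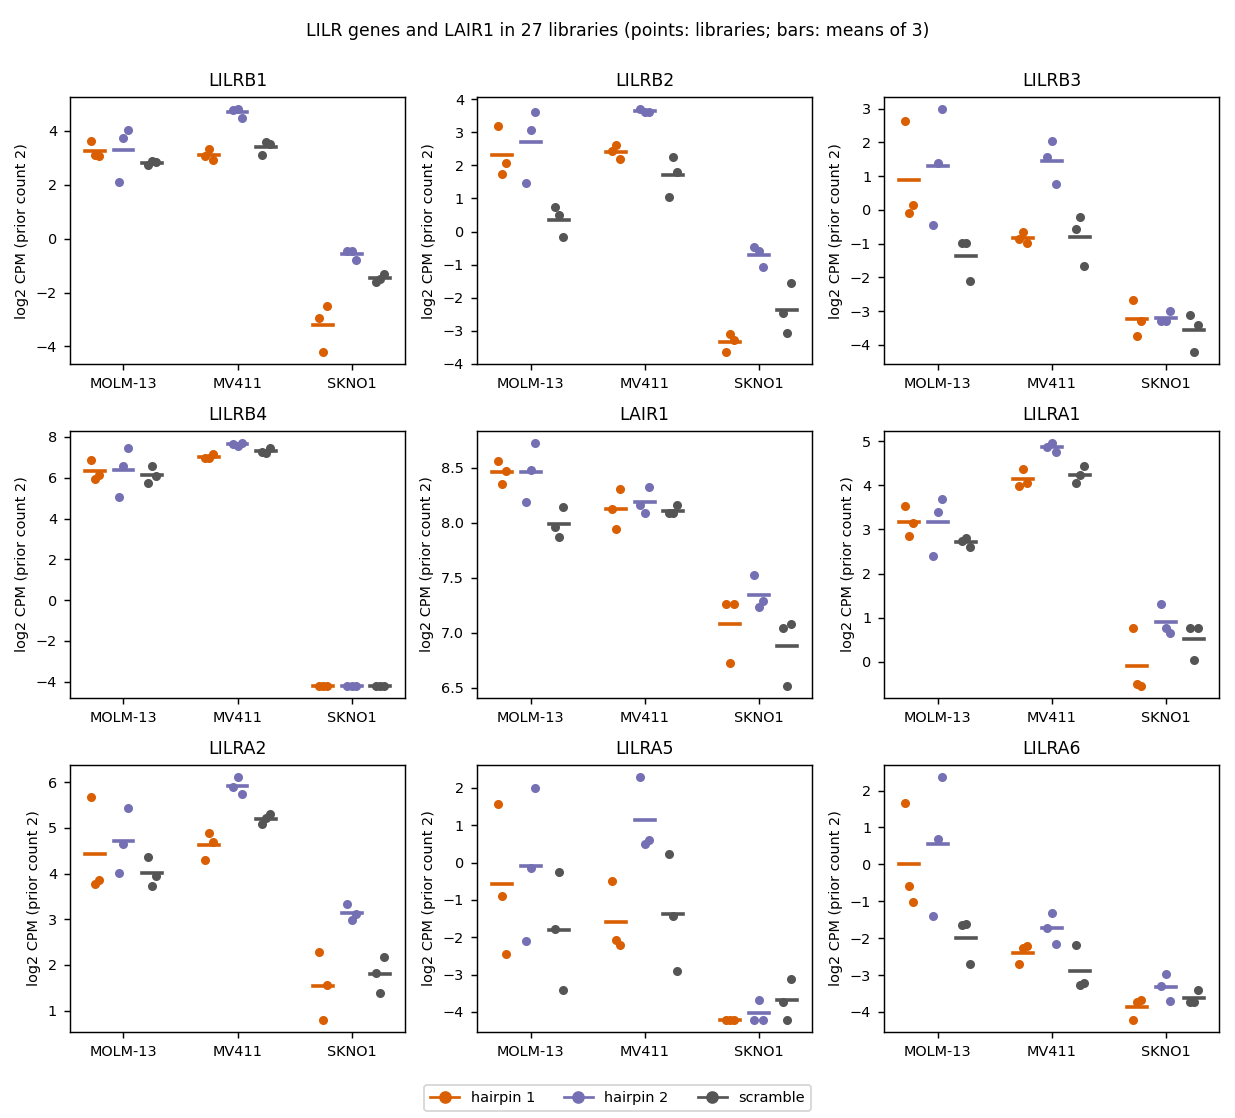
Log2 CPM (prior count 2) of the 9 genes in each of 27 libraries, by line and by hairpin 1, hairpin 2 and scramble. Points are libraries and bars are means of 3. In MV411 and SKNO1 the hairpin 2 libraries lie above the hairpin 1 libraries for LILRB1, LILRB2 and LILRA2, and LILRB4 is at the floor in SKNO1.

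In MV411, the hairpins differed: hairpin 2 raised 5 of these receptors and hairpin 1 raised none. LILRB1, an inhibitory receptor for HLA class I, had 27.3, 27.9 and 21.9 CPM with hairpin 2, against 8.51, 12 and 11.2 CPM with scramble. The hairpin 2 libraries all lay above the scramble ones, and the log2 change was 1.31 ± 0.18 (adjusted p = 0.000844). LILRB2 had 13, 12.2 and 12.2 CPM with hairpin 2, against 2.01, 4.71 and 3.41 CPM with scramble, a log2 change of 1.91 ± 0.26 (adjusted p = 0.000827). Its hairpin 2 libraries were nearly equal to each other and above every scramble library. LILRB3 had 2.91, 4.11 and 1.65 CPM with hairpin 2, against 0.626, 0.809 and 0.265 CPM with scramble, without overlap and with a log2 change of 2.37 ± 0.44 (adjusted p = 0.00403). Among the activating receptors, LILRA2, which senses cleaved immunoglobulins, had 59.9, 69.5 and 53.5 CPM with hairpin 2, against 33.9, 37.3 and 39.4 CPM with scramble. LILRA1 had 29.1, 31 and 26.7 CPM with hairpin 2, against 16.4, 18.8 and 21.4 CPM with scramble. The groups of LILRA2 and LILRA1 did not overlap, and their log2 changes were 0.75 ± 0.17 (adjusted p = 0.0114) and 0.64 ± 0.16 (adjusted p = 0.0157).

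The 5 called of 8 tested compare with 8.38% of all genes tested called higher with hairpin 2 in MV411. The median log2 change of the 8 was 1.03, against 0.00 for all genes. Counting LILRA6, which was too low to be tested, 8 of the 9 members had all hairpin 2 libraries above all scramble libraries, which held for 13.5% of all genes tested, and LAIR1 was the exception. LILRB4 was among these 8, at 204, 188 and 209 CPM with hairpin 2 against 153, 148 and 179 CPM with scramble, but its log2 change of 0.35 ± 0.12 missed the threshold (adjusted p = 0.075). LAIR1 had 287, 272 and 321 CPM with hairpin 2 and 272, 272 and 286 CPM with scramble (0.11 ± 0.13, adjusted p = 0.635). Markers of several cell types also moved with hairpin 2 in MV411, where 10.2% of all genes were lower. The 5 monocyte markers tested all rose, and CTSG (-2.02, adjusted p = 0.000531) and MPO (-0.89, 0.0252) of the 5 granulocyte markers fell. The NK cell marker NKG7 was lower (-0.52, adjusted p = 0.0262), as was the epithelial marker KRT18 (-0.60, 0.0333). PAX5 of B cells (1.47, adjusted p = 0.0177) and KLF1 of erythroid cells (1.16, 0.0125) were higher. Their part in the receptors' changes was not tested. Without any one library, between 4 and 6 members passed, and LILRA1 was the member that lost its call, without hairpin 2 replicate 1 (adjusted p = 0.0583) or without scramble replicate 1 (0.0603).

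With hairpin 1 in MV411, edgeR called 0 of 8 members, while 2.37% of all genes were called higher and 4.13% lower. An unadjusted p under 0.05 was reached by 3 members, and DESeq2 called 1, in the downward direction. LILRA2 was at 19.7, 29.6 and 26 CPM with hairpin 1 and 33.9, 37.3 and 39.4 CPM with scramble, without overlap, and its log2 difference was -0.55 ± 0.17 (adjusted p = 0.0869). LILRB4 was at 127, 124 and 141 CPM with hairpin 1 and 153, 148 and 179 CPM with scramble, also without overlap (-0.29 ± 0.12, adjusted p = 0.219). LILRB2 pointed the other way, at 5.37, 6.05 and 4.53 CPM with hairpin 1 and 2.01, 4.71 and 3.41 CPM with scramble (0.65 ± 0.26, adjusted p = 0.175). LILRA2 and LILRB4 were the 2 members with all hairpin 1 libraries below all scramble libraries, which held for 14% of all genes tested. The estimates were negative for 6 of the 8 members. With both hairpins counted as knockdown, 0 of 8 members passed in MV411, where 1.71% of all genes were higher. LILRB2 came nearest, at a log2 change of 1.41 ± 0.41 (adjusted p = 0.0738), and was the one member with an unadjusted p under 0.05. DESeq2 called 1 member.

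Set against hairpin 1, hairpin 2 gave higher levels of 7 of the 8 tested members in MV411, where 5.86% of all genes tested were higher. The changes on the log2 scale were 2.52 ± 0.45 for LILRB3 (adjusted p = 0.00527), 1.61 ± 0.18 for LILRB1 (0.000728), 1.25 ± 0.25 for LILRB2 (0.00964) and 0.64 ± 0.12 for LILRB4 (0.00821). LILRB4 therefore differed between the hairpins although neither differed from scramble past the threshold. For the activating members they were 1.31 ± 0.17 for LILRA2 (adjusted p = 0.00132), 0.74 ± 0.16 for LILRA1 (0.0122) and 2.95 ± 0.84 for LILRA5 (0.0449). LILRA5 had 4.87, 1.35 and 1.48 CPM with hairpin 2 and 0.658, 0.185 and 0.161 CPM with hairpin 1. The hairpin 2 libraries lay above the hairpin 1 libraries for 8 of the 9 members, LILRA6 included, which held for 13.9% of all genes. LAIR1 was again the exception (0.09 ± 0.13, adjusted p = 0.729). CARM1 itself was lower with hairpin 2, at 2.96 ± 0.602 CPM, than with hairpin 1, at 6.12 ± 0.302 CPM (SD, n = 3, log2 difference -1.02, adjusted p = 0.00455), and whether the receptors followed the depth of knockdown was not tested. Leaving out hairpin 1 replicate 1 reduced the count to 4 members, with LILRA5 at adjusted p = 0.0625, LILRA1 at 0.0781 and LILRB4 at 0.0633 no longer past. LILRA5 also lost its call without hairpin 1 replicate 2 (0.149) or 3 (0.158), hairpin 2 replicate 1 (0.201) or scramble replicate 2 (0.0524), and its log2 change ran from 2.11 to 3.87. LILRA1 was lost without hairpin 1 replicate 3 as well (0.066), and LILRB4 without hairpin 1 replicate 2 (0.05).

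**Figure D4:**
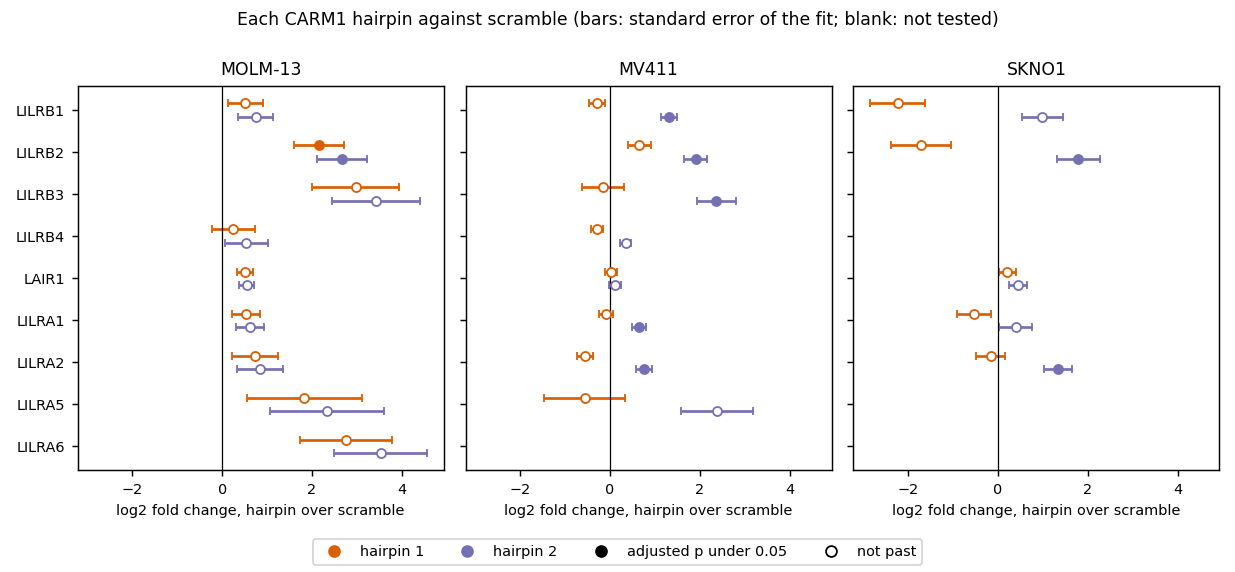
Log2 fold changes of each CARM1 hairpin over scramble for the members tested in each line, with the standard error of the fit. Filled points passed an adjusted p of 0.05. Hairpin 2 lies to the right of 0 for every member shown in all 3 lines, and hairpin 1 lies on both sides of 0 in MV411 and SKNO1.

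SKNO1 held little RNA of these receptors, and there too hairpin 2 raised receptors that hairpin 1 did not. The 5 members with enough counts to test were LAIR1, LILRA1, LILRA2, LILRB1 and LILRB2. LILRA2 had 10.1, 7.89 and 8.61 CPM with hairpin 2, against 3.47, 2.55 and 4.48 CPM with scramble, a log2 change of 1.34 ± 0.32 (adjusted p = 0.0196). LILRB2 had 0.664, 0.605 and 0.423 CPM with hairpin 2, against 0.126, 0.0648 and 0.287 CPM with scramble, a log2 change of 1.79 ± 0.48 (adjusted p = 0.0314). Neither gene overlapped between hairpin 2 and scramble. LILRB2 rests on 70.85 expected counts in the hairpin 2 libraries and 23 in the scramble libraries. It reached the count minimum of the test in 3 of 3 hairpin 2 libraries but in 1 of 3 scramble and 0 of 3 hairpin 1 libraries, so it entered the test through the group where it is high. The members called higher were 2 of 5, beside 5.54% of all genes tested, and 4 of the 9 members had all hairpin 2 libraries above all scramble libraries, against 19.4% of all genes. LILRB1 had 0.664, 0.678 and 0.518 CPM with hairpin 2 and 0.273, 0.302 and 0.349 CPM with scramble (0.99 ± 0.46, adjusted p = 0.196). LAIR1 had 184, 150 and 156 CPM with hairpin 2 and 132, 91.3 and 135 CPM with scramble (0.45 ± 0.19, adjusted p = 0.162). Among markers of other cell types, CTSG of granulocytes fell with hairpin 2 in SKNO1 (-1.73, adjusted p = 0.0198), and of 2 erythroid markers tested HBB, at 0 in all scramble libraries, was called higher. Their part in the result was not tested. Both calls of hairpin 2 were lost without any one of hairpin 2 replicates 1, 2 or 3 or of scramble replicates 1 or 2, with an adjusted p of 0.0587 to 0.0729 for LILRA2 and 0.0665 to 0.131 for LILRB2.

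With hairpin 1 in SKNO1, edgeR called 0 of 5 members, where 0.277% of all genes were lower and 0.255% higher, 2 members had an unadjusted p under 0.05, and DESeq2 called 0. LILRB1 was at 0.0773, 0 and 0.121 CPM with hairpin 1 and 0.273, 0.302 and 0.349 CPM with scramble (-2.23 ± 0.62, adjusted p = 0.115). LILRB2 was at 0.0258, 0.0631 and 0.0485 CPM with hairpin 1 and 0.126, 0.0648 and 0.287 CPM with scramble (-1.71 ± 0.66, adjusted p = 0.216). For LILRB1 and LILRB2 all hairpin 1 libraries were below the scramble libraries, as held for 9.2% of all genes, on totals of 8 and 6 expected counts with hairpin 1. With both hairpins counted as knockdown, there were 0 of 5 members called by edgeR, 0 at an unadjusted p under 0.05 and 0 by DESeq2, where 0.0326% of all genes were higher. Hairpin 2 against hairpin 1 gave 3 of 5 members higher, where 4.52% of all genes were, with log2 changes of 3.50 ± 0.59 for LILRB2 (adjusted p = 0.00319), 3.22 ± 0.59 for LILRB1 (0.00493) and 1.5 ± 0.32 for LILRA2 (0.0123). LILRB2 reached the count minimum in 3 hairpin 2, 0 hairpin 1 and 1 scramble libraries, so it entered this test too through the group where it is high. For these 3 genes all hairpin 2 libraries lay above all hairpin 1 libraries, which held for 14.2% of all genes. CARM1 was at 2.76 ± 0.08 CPM with hairpin 2 and 7.5 ± 1.63 CPM with hairpin 1 in SKNO1 (SD, n = 3, log2 difference -1.45, adjusted p = 0.000957). Without hairpin 1 replicate 3, LILRA2 no longer passed (adjusted p = 0.0539). LILRB3, LILRA5 and LILRA6 had at most 7.06 expected counts in any group of 3 SKNO1 libraries and were not tested.

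**Figure D5:**
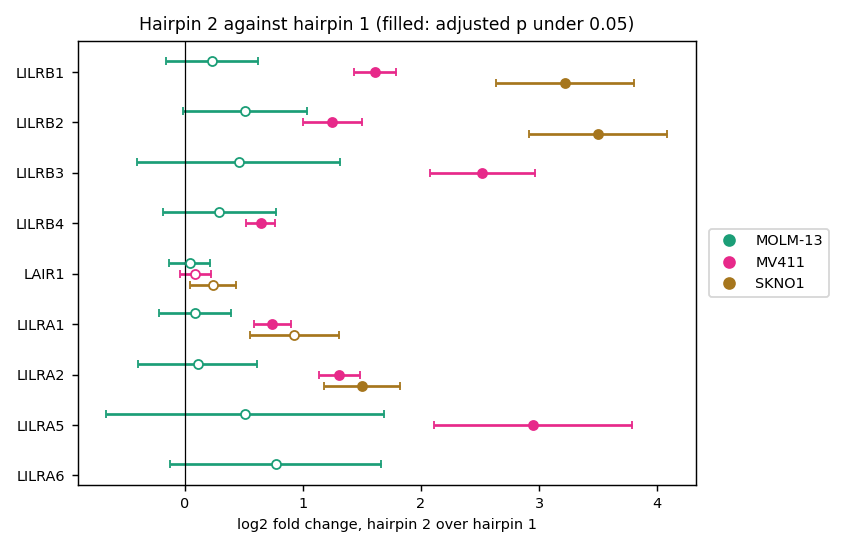
Log2 fold changes of hairpin 2 over hairpin 1 in each line, with the standard error of the fit. Filled points passed an adjusted p of 0.05. The plot shows 7 filled points in MV411, 3 in SKNO1 and 0 in MOLM-13.

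Across the hairpin 2 comparisons, LILRB2 passed in each of the 3 lines, with log2 changes of 2.67 in MOLM-13, 1.91 in MV411 and 1.79 in SKNO1, the last from a test it entered through its hairpin 2 libraries. LILRA2 passed in MV411 and SKNO1, and its log2 change in MOLM-13 was 0.84 ± 0.51 (adjusted p = 0.304). No member was called lower with either hairpin in any line by edgeR.

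With the lines combined and line as a term, 18 knockdown libraries were compared with 9 scramble libraries. The members that rose were LILRB2 by 1.69 ± 0.39 (adjusted p = 0.0027), LILRB3 by 2.17 ± 0.55 (0.00559), LILRA6 by 2.17 ± 0.56 (0.00714) and LAIR1 by 0.31 ± 0.09 (0.0174) on the log2 scale. LILRA6 reached the count minimum in 0 of the 9 scramble libraries and in knockdown libraries of MOLM-13 (5) and MV411 (1), so it entered this test through them. The members called were 4 of 9, where 10.1% of all genes were higher, and the members' median change was 0.59 against 0.05 for all genes. LILRB4 had a change of 0.24 ± 0.24 (adjusted p = 0.53), LILRB1 of 0.57 ± 0.32 (0.216), LILRA2 of 0.59 ± 0.27 (0.121), LILRA1 of 0.31 ± 0.19 (0.253) and LILRA5 of 1.59 ± 0.71 (0.116). Without MOLM-13 scramble replicate 2, LAIR1 was just outside (adjusted p = 0.0514). Differences in the knockdown effect between lines were tested with interaction terms. For each of the 3 pairs of lines edgeR called 0 members, 0 had an unadjusted p under 0.05, and DESeq2 called 0, where few of all genes were called in either direction (0.936% for MOLM-13 against SKNO1, 0.56% for MV411 against SKNO1 and 0% for MOLM-13 against MV411). No difference between lines was thus detected for these genes, and LILRB4 gave no fit against SKNO1, where it is at 0. Both hairpins were pooled in these tests, although they differed in MV411 and SKNO1. Standard errors ran up to 2.82 on the log2 scale, for LILRA5 in MOLM-13 against SKNO1, so a difference could be missed.

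Several of these genes share sequence, so reads can be split between them. Of all 50-base stretches of its annotated transcripts, LILRB3 shared 27% with other genes, 16.3% with LILRA6, and LILRA6 shared 23.4%, 22.4% with LILRB3. For LILRB1, LILRB2, LILRB4 and LILRA2 the share ran between 14.1% and 18.1%, and for LAIR1, LILRA1 and LILRA5 between 3.1% and 5.29%. Of the values above 0, 55.6% to 92.6% were not whole numbers (tolerance 1e-09) in 8 members, and 0% in LILRA5, against 30.4% in the whole table. The split between LILRB3 and LILRA6 is therefore uncertain. LILRB1 overlaps the antisense gene LILRB1-AS1 by 355 exon bases. LILRB3 and LILRA6 lie within the span of RPS9 on the opposite strand, over 7229 and 6200 bases, and share 0 exon bases with it. The strand setting of the counting is not given in the sources used here.

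Most other genes of the cluster were too low to test. Of 4 further LILR genes in the table, LILRA4 and the pseudogene LILRP1 were tested, and LILRP1 rose in the combined comparison (1.20, adjusted p = 0.039). LILRA4 had a combined log2 change of 0.91 (adjusted p = 0.137), and LILRB5 and LILRP2 were not tested. Of 19 further genes of the leukocyte receptor complex and LAIR2, 8 were tested with the lines combined, 2 rose and 1 fell, where 10.1% of all genes rose and 9.79% fell. FCAR, the receptor for the Fc part of IgA, rose by 3.03 (adjusted p = 3.04e-05), and passed in MOLM-13 knockdown (2.81, 0.00622) and in MV411 with hairpin 1 (2.78, 0.00515) and hairpin 2 (4.26, 0.000199), while its mean was 0 in SKNO1. The scramble libraries of MV411 had FCAR at 0.0659, 0.147 and 0.106 CPM, below the count minimum of the test (0.263 CPM). FCAR therefore entered the MV411 tests through the hairpin libraries, where it is higher. OSCAR, a collagen receptor that signals through FcRγ, rose by 0.69 (adjusted p = 0.0306), and in SKNO1 with hairpin 2 by 1.59 (0.00517). KIR3DX1 fell by 1.95 (adjusted p = 0.000155), and was at 0.782 ± 0.188 CPM with hairpin 2 and 0.47 ± 0.0782 CPM with hairpin 1 in MV411, against 3.04 ± 0.451 CPM with scramble (SD, n = 3). LAIR2, which encodes a soluble relative of LAIR1, had a combined log2 difference of -0.27 (adjusted p = 0.574), GP6 of 0.25 (0.535), TTYH1 of 0.35 (0.379), LENG8 of 0.32 (0.224) and LENG9 of 0.00 (0.989).

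The partners of the receptors in signalling moved unevenly. Of 8 ITAM adaptors and kinases, 4 rose and 1 fell in the combined comparison, where 10.1% of all genes rose and 9.79% fell, with a median log2 change of 0.48 against 0.05 for all genes. TYROBP, which encodes the adaptor DAP12, rose by 1.14 (adjusted p = 1.36e-05). In MV411 it had 168, 176 and 167 CPM with hairpin 2 and 129, 130 and 135 CPM with hairpin 1, against 60, 83.8 and 103 CPM with scramble, so each hairpin lay above all scramble libraries. The kinases LYN (0.54, adjusted p = 7e-04) and FGR (0.92, 0.00566) rose, and FYN (-0.76, 0.0422) fell. FCER1G, whose product FcRγ carries the signal of the LILRA receptors, did not pass (0.52, adjusted p = 0.141), and in MV411 averaged 33 ± 10.5 CPM with hairpin 2 and 14 ± 1.16 CPM with hairpin 1, against 24.6 ± 6.13 CPM with scramble (SD, n = 3). Of 5 ITIM phosphatases and adaptors, PTPN6 rose (0.34, adjusted p = 0.0111), SHC1 (-0.30, 0.0154) and PTPN11 (-0.32, 0.0459) fell, and INPP5D (-0.02, 0.927) and CSK (0.14, 0.399) did not pass.

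Of 16 genes of known ligands, 14 were tested with the lines combined and 7 rose, beside 10.1% of all genes, with a median change of 0.58. Among them were C1QA, a C1q chain (3.28, adjusted p = 0.000249), HLA-B (0.44, 0.00491), HLA-C (0.53, 0.0119), APOE (1.53, 0.0156), B2M (0.46, 0.0324) and HLA-F (0.89, 0.035). In MV411, 8 of 13 rose with hairpin 2, beside 8.38% of all genes, and 1 of 13 with hairpin 1, beside 2.37%. APOE, whose product LILRB4 binds, had 4.66, 6.7 and 3.69 CPM with hairpin 1 and 4.41, 12.8 and 27.2 CPM with hairpin 2 in MOLM-13, against 1.59, 2.7 and 0.62 CPM with scramble (knockdown log2 change 2.67, adjusted p = 0.0313). All its knockdown libraries were above its scramble libraries, while LILRB4 itself overlapped.

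Among 13 other ITIM receptors of myeloid cells, 6 rose and 0 fell in the combined comparison, beside 10.1% and 9.79% of all genes, among them SIGLEC5 (1.04, adjusted p = 0.000129), CD300LF (0.59, 0.000129), MILR1 (0.85, 0.00317) and SIRPA, the receptor for CD47 (0.38, 0.0042). In MV411, 7 of 12 rose with hairpin 2 (8.38% of all genes) and 0 of 12 with hairpin 1 (2.37%). Of 18 monocyte and macrophage markers, 17 were tested with the lines combined and 9 rose, beside 10.1% of all genes, including CD68 (1.21, adjusted p = 7.76e-06), the growth factor receptor CSF1R (1.04, 0.000155), the scavenger receptor CD36 (1.94, 0.000217) and CD14 (2.83, 0.00204), with a median of 1.04. In MV411, 10 of 14 rose with hairpin 2 (8.38% of all genes) and 3 of 14 with hairpin 1 (2.37%). The 7 monocyte markers of the label check summed to 808 to 1760 CPM in MV411 knockdown libraries and to 449 to 844 CPM in scramble libraries, and their part in the receptors' changes was not tested. LYZ alone, which largely set these sums, was at 678 to 1500 CPM and 367 to 773 CPM in these libraries. Of 12 monocytic transcription factors, 7 rose in the combined comparison, beside 10.1% of all genes, among them KLF4 (1.08, adjusted p = 0.000144), KLF2 (1.45, 0.0018) and CEBPA (0.41, 0.00527). In MV411 the list had 2 of 12 higher with hairpin 2 (8.38% of all genes) and 4 of 12 with hairpin 1 (2.37%), and 0 higher and 2 lower for hairpin 2 against hairpin 1, where 5.62% of all genes were lower. Of 7 granulocytic and progenitor markers, 6 were tested and MPO fell (-0.62, adjusted p = 0.0438). Of PLAUR, ARG1, RELA and NFKB1, 0 of 4 passed with the lines combined by edgeR.

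How far the members varied together differed between pairs and lines. After the mean of each line was subtracted, log2 CPM over the 27 libraries gave a Pearson r of 0.867 for LILRB3 and LILRA6, which share sequence, 0.833 for LILRA1 and LILRA2, 0.819 for LILRB3 and LILRA5 and 0.799 for LILRB1 and LILRA1. The lowest was 0.293, for LAIR1 and LILRA5. Within single lines, LILRB3 and LILRA6 had an r of 0.991 in MOLM-13, 0.77 in MV411 and -0.23 in SKNO1, and LILRB3 and LILRA5 had 0.874, 0.816 and 0.0488 in the same lines. In SKNO1, LILRB3, LILRA5 and LILRA6 had at most 7.06 expected counts in any group, so their r there rests on few counts and shows no difference between lines. LILRA6 was also too low to be tested in MV411. LAIR1 in MV411 gave between 0.0502 and 0.484 with the other members, and in MOLM-13 between 0.561 and 0.897. Among 11665 other genes of mean log2 CPM of 1 or more, those most like LILRB4 by this measure were RHOBTB2 (0.89), CAMK2D (0.865), CAMK1D (0.843), HK1 (0.841) and DNAJC12 (0.838). Among those most like LAIR1 were U2AF1L4 (0.856), CYTH4 (0.838), GTF2IRD2 (0.834) and BRE (0.824). LILRA2 was most like TK2 (0.944), DOK1 (0.917), CTD-2562J17.6 (0.907), HAAO (0.9) and CYTH1 (0.893). These values describe the libraries, which share lines, hairpins and scaling, and carry no test.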

How the data were processed

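Total RNA was sequenced after ribosomal RNA depletion with a stranded kit, per the labels' protocols. The authors deposited RSEM expected counts for 57992 genes in 27 libraries, without scaling for depth or length. STAR 2.5.3, RSEM and GRCh38.p7 are named in the submitters' processing notes. After rounding to whole numbers, the counts were tested with edgeR 4.0.16 under R 4.3.3 (quasi-likelihood F-test, TMM, filterByExpr with minimum count 10 and minimum total 15). Each line was fitted on its 9 libraries, and the combined, between-line and scramble comparisons on all libraries of their groups. Two-sided p-values received a Benjamini-Hochberg adjustment across every gene of the fit, and 0.05 was the threshold. Errors of log2 changes are standard errors of the fit. Each comparison was first run on simulated data with known changes. DESeq2 1.42.0 was an alternative.

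The members, lists, tests and naming rule were chosen with earlier results of these data known. The rule names all 9 members, every tested LILR and receptor complex gene, up to 4 genes of smallest p per other list and comparison, and ligands or adaptors beside their receptors. Some genes that the rule names are not reported here.

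The closest replicates, SKNO1 scramble 1 and 3, differed by a chi-square per gene of 7.75, and every other pair by at least 23.2.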

Additional observations from a re-analysis of the deposited data

Results flagged for a closer look

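The 6 knockdown libraries of each line were checked for a library far from the rest, in 27 groups over the 9 members. Chance gives about 1 in 20 such groups, and 2 were found. LAIR1 in SKNO1 was at 106 CPM in hairpin 1 replicate 2, below 150 to 184 CPM in the other 5 knockdown libraries, and its gap to the nearest was 0.637 of the whole range. SKNO1 scramble replicate 2 was also the lowest of its group for LAIR1, at 91.3 CPM. LILRA5 in SKNO1 was at 0.0242 CPM, or 1 count, in hairpin 2 replicate 2, with the other 5 knockdown libraries at 0.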

How the results depend on the processing

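Counts of members past the threshold were recomputed under each alternative. RLE size factors and library sizes without structured and mitochondrial RNAs moved none of the 18 counts by over 1.5 times. Of 4 comparisons tried with the hairpins as separate groups, knockdown in MV411 moved, to 1 member against 0. One fit of all 27 libraries in 9 groups gave 3 members for hairpin 1 and 4 for hairpin 2 in MOLM-13 against 1 each, 3 for hairpin 2 in MV411 against 5, and 1 for hairpin 2 in SKNO1 against 2. DESeq2 gave 3 for hairpin 2 in MOLM-13, 1 for hairpin 1 in MV411 (lower) against 0, 1 for knockdown in MV411 against 0, and 1 for hairpin 2 in SKNO1. Without a filter on low counts, MOLM-13 had 5 members with hairpin 1 and 5 with hairpin 2, knockdown in MV411 had 1, hairpin 1 in MV411 had 1 (lower) and hairpin 1 in SKNO1 had 1 (lower). The causes were not tested.

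The replicate numbers were not taken as pairs in the main tests, although same-numbered libraries were more alike by median r in every line. After group means were subtracted, same-numbered libraries correlated above 0.1 in 5 of 9 pairs in MOLM-13, 8 of 9 in MV411 and 5 of 9 in SKNO1. Libraries with different numbers did so in 4 of 18, 1 of 18 and 3 of 18 pairs. The median r was 0.187, 0.232 and 0.12 for same numbers, against -0.0876, -0.111 and -0.0669 for different ones. With a replicate block, knockdown in MOLM-13 gave 2 members against 4, hairpin 1 gave 0 in MOLM-13 against 1 and 1 (lower) in MV411 against 0, and MOLM-13 against MV411 gave 3 against 5. The block moved none of the other 14 counts by over 1.5 times.

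Leaving out each library in turn gave 0 to 4 members for knockdown in MOLM-13, 0 to 1 for hairpin 1 and 0 to 4 for hairpin 2. In MV411 it gave 0 to 1 for knockdown, 0 to 1 for hairpin 1, 4 to 6 for hairpin 2 and 4 to 7 for hairpin 2 against hairpin 1. In SKNO1 it gave 0 to 2 for hairpin 2 and 2 to 4 for hairpin 2 against hairpin 1. The combined count ran from 3 to 4, that of MOLM-13 against MV411 from 3 to 5, and that of SKNO1 against the others from 6 to 7.

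Changes of sign occurred among estimates that had not passed. LILRA1 under knockdown in SKNO1, near 0, became -0.00229 with DESeq2, -0.0723 with separate hairpins, -0.0225 without a filter and -0.0368 with the replicate block. LILRB1 there became -0.619 with separate hairpins. With single libraries left out, the log2 values ran from -0.216 to 0.156 for LILRA1 and from -0.161 to 0.412 for LILRB1 under knockdown in SKNO1. For hairpin 1 they ran from -0.223 to 1.04 for LILRA2, -0.143 to 3.14 for LILRA5 and -0.12 to 0.492 for LILRB4 in MOLM-13, from -0.0683 to 0.0964 for LAIR1, -1.49 to 0.716 for LILRA5 and -0.503 to 0.207 for LILRB3 in MV411, and from -0.669 to 0.142 for LILRA2 in SKNO1. LILRB4 ran from -0.0632 to 0.95 for hairpin 2 in MOLM-13 and from -0.00717 to 0.144 for knockdown in MV411, and LILRA5 from -1.87 to 0.717 for MOLM-13 against MV411.

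Depth limits LILRB3, LILRA5 and LILRA6 in SKNO1 and LILRA6 in MV411, which were not tested there.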
